A study of Homo sapiens with 12 samples.

Results

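The 10 genes described here encode ligands and receptors of the VEGF and FGF systems: VEGFA, VEGFB, VEGFC, PGF and FGF2 among the ligands, FLT1, KDR and FGFR1 among the receptors, and the co-receptors NRP1 and NRP2. They were chosen by name, and every probe set whose platform annotation gives one of these symbols alone was taken. That gave 39 probe sets of the 54613 tested, or 10 genes of the 19775 that have a probe set of their own. By gene, 4 probe sets carried the symbol VEGFA, 1 VEGFB, 1 VEGFC, 2 PGF, 6 FLT1, 1 KDR, 4 NRP1, 11 NRP2, 2 FGF2 and 7 FGFR1.

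Expression was measured on 12 Affymetrix arrays in 4 groups of 3, from MMS1 and RPMI8226, both labelled as multiple myeloma lines (RPMI8226 is also written RPMI or RPMI826 in the labels). All cells were stable transductants carrying a GFP lentivirus, sorted by flow cytometry and expanded. The treated group of each line carried a sponge, an artificial transcript with repeated binding sites that ties up miR-16 (labelled miR16 KO or miR16 knock down, and in 1 label field siRNA), and the control group carried a mock sponge. The sponge was meant to imitate the drop in miR-16 of myelomas with a 13q deletion, and the study searched for genes whose expression changed under it. The 4 groups are thus MMS1 with control sponge, MMS1 with miR-16 sponge, RPMI8226 with control sponge and RPMI8226 with miR-16 sponge. Each line is 1 transduced population per sponge, the labels do not say whether the 3 arrays of a group came from separate cultures, and the p-values therefore measure the spread between arrays, which may be technical. miR-16 itself was not measured, so the effect of the sponge on it was not checked here.

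VEGF ligands are secreted proteins that drive the growth and leakiness of blood vessels. VEGFA acts mainly through the receptor tyrosine kinase KDR, while FLT1 binds VEGFA, VEGFB and PGF and is also made as a shortened secreted form that captures ligand. NRP1 and NRP2 are co-receptors shared with semaphorins, and FGF2 is a heparin-binding growth factor that signals through FGFR1 and its relatives. In myeloma, tumour cells are a known source of VEGFA in the bone marrow, and MIR16-1 lies in the region of 13q that is often deleted. A microRNA pairs with its targets mainly through its seed, bases 2 to 8, and lowers their mRNA or protein.

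The sponge was built against miR-16, and mature microRNAs with the same seed are shown because a seed-matched sponge could also bind them. In RefSeq's table (GRCh38.p14), 7 of 2370 mature names, made from 8 genes, share the miR-16 seed. Both genes of miR-16 give the same mature sequence, at chr13:50049027-50049048 on the minus strand and chr3:160404754-160404775 on the plus strand. The seed is in capitals.
hsa-miR-16-5p: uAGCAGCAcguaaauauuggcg
hsa-miR-15a-5p: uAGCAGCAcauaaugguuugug
hsa-miR-15b-5p: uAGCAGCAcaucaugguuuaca
hsa-miR-195-5p: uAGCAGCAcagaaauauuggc
hsa-miR-497-5p: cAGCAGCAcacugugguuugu
hsa-miR-424-5p: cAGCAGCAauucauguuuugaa
hsa-miR-6838-5p: aAGCAGCAguggcaagacuccu
The sequences are alike in the 7 seed bases and differ outside them, to unlike degrees. Position by position after the seed, miR-195-5p shares 11 bases with miR-16-5p and miR-6838-5p shares 2. Which of these microRNAs the cells hold, and whether the members' transcripts carry a matching site, was not tested.

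Values are the authors' deposited log2 signals, so a difference of 1 is a doubling. The values have a lower bound near 4, and a fold change of a dim probe set is understated. The signal of a probe set depends on its probes, so differences are read within a probe set, and a rank among genes or a sum over probe sets, as given for marker genes, is only a rough description of a level. A call is an adjusted p under 0.05 from limma over all probe sets tested. At the median standard error of 0.14 of a difference between groups, small changes could not be detected with 3 arrays a group.

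Array medians lay between 5.80 and 5.90 on all 12 arrays. They ran from 5.80 to 5.83 on the MMS1 arrays and from 5.84 to 5.90 on the RPMI8226 arrays, without overlap. The mean of the 18S ribosomal control probe sets was 7.84 on MMS1 miR-16 sponge replicate 1 and between 9.56 and 11.1 on the other 11 arrays. The plasma cell markers TNFRSF17, JCHAIN and CD38 had means below 5, and 6 of 10 markers of plasma cells lay below the median gene. The markers SDC1 and XBP1 lay above the upper quartile of genes, with means of 8.90 and 8.51, and SDC1 was the 1 plasma cell marker called in any comparison, at 0.29 for the mean of both sponge effects (limma adjusted p = 0.0384). All 6 erythroid markers measured lay above the upper quartile of genes, and their summed linear signal was 40859 to 42615 in MMS1 control arrays and 23503 to 25123 in MMS1 miR-16 sponge arrays. In RPMI8226 the same sum was 30499 to 31323 in control arrays and 24653 to 25073 in miR-16 sponge arrays. The sum is carried by HBE1 and HBZ, whose means were 14.16 and 13.06. In MMS1 HBZ, GATA1, KLF1 and ALAS2 fell and the median difference of the 6 was -1.13, while in RPMI8226 only HBE1 of the 6 was called, and fell by 0.49, and the median was -0.08. The part of this difference in the results below was not tested, and "MMS1" and "RPMI8226" are used as the labels give them. In both lines the high erythroid and mostly low plasma cell markers go against the label of a myeloma line, though SDC1 and XBP1 were high. The identity of the cells was not tested, and the results below are not to be read as findings about myeloma. Among 9 endothelial markers 7 lay below the median gene, and CDH5, ESAM, CLDN5 and EMCN had means below 5. PECAM1 lay above the upper quartile of genes and VWF above the median gene, with means of 7.92 and 6.55. None of the 9 was called in any comparison. Their summed linear signal was 598 to 610 in MMS1 control, 575 to 624 in MMS1 miR-16 sponge, 571 to 645 in RPMI8226 control and 616 to 683 in RPMI8226 miR-16 sponge arrays. None of 7 fibroblast and 5 macrophage markers was called in any comparison. Among them COL1A1 of the fibroblast and CD163 of the macrophage markers lay above the upper quartile of genes, with means of 8.87 and 7.73.

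With the miR-16 sponge in MMS1, VEGFA signal was higher and FLT1 signal lower. All 4 VEGFA probe sets rose, by 1.44-fold to 2.39-fold, and 4 of 6 FLT1 probe sets fell, by 1.57-fold to 3.35-fold, where 4.20% of all probe sets were called higher and 6.11% lower. VEGFB fell 1.33-fold, 2 of 7 FGFR1 probe sets rose, and 1 of 11 NRP2 probe sets rose. No probe set of VEGFC, PGF, KDR, NRP1 or FGF2 was called. In RPMI8226 1 FLT1 probe set fell, against 0.172% of all probe sets called lower, and no other member was called. In these bulk samples, a change in the share of cells that hold a transcript and a change in its amount per cell cannot be told apart.

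In counts, 7 of 39 members, from 3 genes, were called higher in MMS1 and 5, from 2 genes, lower. The median change was -0.02 over the members and -0.02 over all probe sets, and the median absolute change was 0.26 against 0.16. The members were chosen with earlier results of these data known, so comparisons with all probe sets are descriptions. In RPMI8226 0 members were called higher, against 0.0238% of all probe sets, and 1 lower. At an unadjusted p under 0.05, limma gave 5 of 39 members and 7459 of all 54613 probe sets in RPMI8226. The 3 arrays of one sponge lay wholly above or below the 3 of the other for 20 of 39 members in MMS1, against 26.7% of all probe sets, and for 7 in RPMI8226, against 21.9%. For the mean of both sponge effects, 7 members were called higher (2.12% of all probe sets) and 3 lower (5.08%).

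VEGFA is the main vessel growth factor of the family. Probe set 210512_s_at, the brightest of the gene, read 9.87, 9.80 and 9.97 on the MMS1 control arrays and 10.61, 10.23 and 10.37 on the MMS1 miR-16 sponge arrays. It read 10.60, 10.82 and 10.65 on the RPMI8226 control arrays and 10.91, 10.82 and 10.76 on the RPMI8226 miR-16 sponge arrays. The MMS1 groups did not overlap, and the RPMI8226 groups overlapped at their edge. In MMS1 the difference was 0.52 ± 0.12 (SE, n = 3 per group, limma adjusted p = 0.0107), and in RPMI8226 it was 0.14 (limma adjusted p = 0.638).

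The probe set with the largest VEGFA difference, 210513_s_at, read 8.63, 8.69 and 8.72 on the MMS1 control arrays and 10.20, 9.83 and 9.79 on the sponge arrays. It read 9.25, 9.20 and 9.23 on the RPMI8226 control arrays and 9.04, 8.80 and 9.16 on the sponge arrays. All MMS1 sponge arrays lay above every other array of this probe set, and all RPMI8226 sponge arrays lay below their controls. The MMS1 difference was 1.26 ± 0.13 (SE, n = 3 per group, limma adjusted p = 2.88e-05), and the RPMI8226 difference was -0.23 (limma adjusted p = 0.463).

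Probe set 211527_x_at read 8.72, 8.82 and 9.01 in MMS1 control, 10.27, 9.90 and 9.81 in MMS1 sponge, 9.53, 9.58 and 9.30 in RPMI8226 control, and 9.44, 9.20 and 9.39 in RPMI8226 sponge arrays. Probe set 212171_x_at read 9.74, 9.80 and 9.89 in MMS1 control, 10.47, 10.52 and 10.34 in MMS1 sponge, 10.69, 10.60 and 10.65 in RPMI8226 control, and 10.55, 10.69 and 10.76 in RPMI8226 sponge arrays. Both separated the MMS1 groups fully and left the RPMI8226 groups overlapping. The MMS1 differences were 1.14 ± 0.14 and 0.63 ± 0.10 (SE, n = 3 per group, limma adjusted p = 0.000151 and 0.00107). Probe sets whose names end in x_at can bind more than 1 transcript. The 4 VEGFA differences in MMS1 stayed called in all 17 alternative settings.

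**Figure D1:**
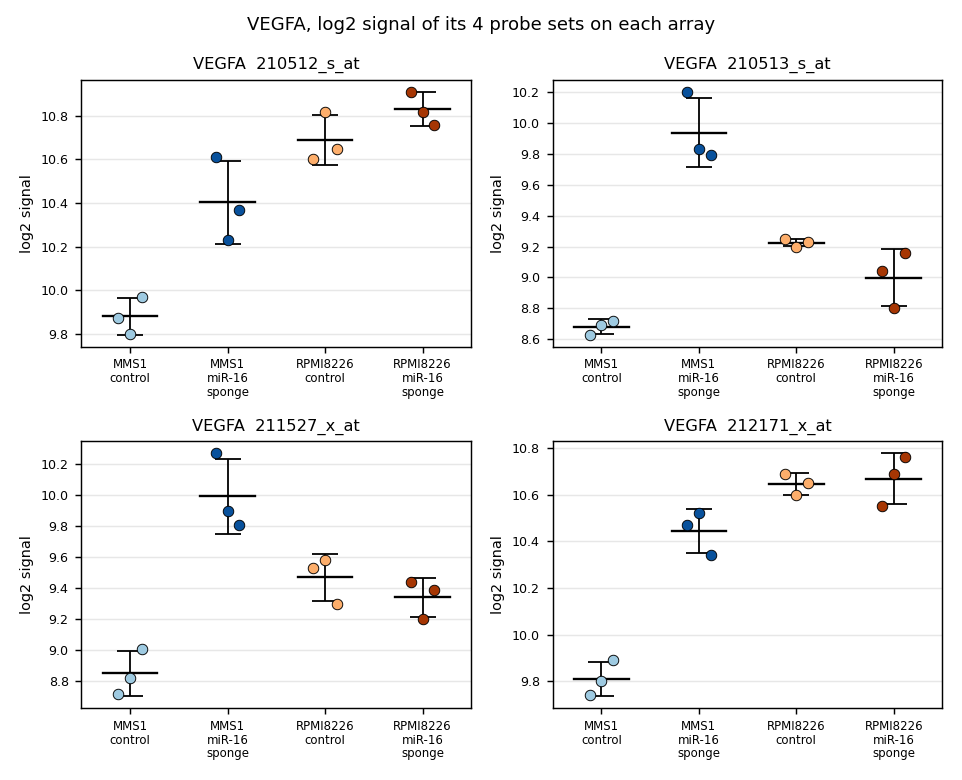
Log2 signal (vertical axis, a separate scale per panel) of the 4 VEGFA probe sets on each of the 12 arrays, by group, with the group mean as a wide bar and 1 SD as whiskers (n = 3). In every panel the MMS1 miR-16 sponge points lie above the MMS1 control points. In 210513_s_at and 211527_x_at they also lie above both RPMI8226 groups, while in 210512_s_at and 212171_x_at the RPMI8226 control mean is the higher one.

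The sponge effect on VEGFA differed between the lines for 3 of its 4 probe sets, in a direction called for 3.10% of all probe sets. Taken as RPMI8226 minus MMS1, the difference of effects was -1.48 ± 0.18 for 210513_s_at, -1.27 ± 0.20 for 211527_x_at and -0.61 ± 0.14 for 212171_x_at (SE, limma adjusted p = 0.000323, 0.00215 and 0.0240). For 210512_s_at it was -0.38, with a 95% interval of -0.74 to -0.03 and limma adjusted p = 0.230, so the brightest probe set alone did not pass. The call of 212171_x_at was lost in 8 of 16 alternative settings, with adjusted p of 0.0508 to 0.0678. With the mean over the 4 probe sets as the gene's value, the MMS1 effect was 0.89 (limma adjusted p = 3.55e-05) and the difference between lines -0.94 (limma adjusted p = 0.000860).

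FLT1 encodes VEGF receptor 1. Because FLT1 gave the largest fall, its upstream sequence is shown. It holds the 250 bases before the start in RefSeq's GRCh38.p14 table, chr13:28495129-28495378 on the minus strand, read 5′ to 3′ along the gene.
FLT1 upstream: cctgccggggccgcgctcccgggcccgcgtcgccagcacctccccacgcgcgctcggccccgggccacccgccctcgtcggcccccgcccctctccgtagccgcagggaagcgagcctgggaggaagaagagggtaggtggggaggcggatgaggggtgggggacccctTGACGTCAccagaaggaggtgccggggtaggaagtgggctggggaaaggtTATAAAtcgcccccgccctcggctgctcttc
The capitals mark a cyclic AMP response element, TGACGTCA (both strands searched), which starts 81 bases before the gene's start and occurs in 1.65% of 35116 promoter windows of RefSeq, and a TATA box, TATAAA (gene strand searched), which starts 31 bases before it and occurs in 6.80%. The marked motifs do not overlap. GGGCGG, the GC box, has 3 matches in the FLT1 window and occurs in 42.6% of all windows, and ACGTG, the core of the hypoxia response element, has 0 matches and occurs in 18.5%. Of the members, 7 had an entry in the promoter table, and among these FLT1 alone held TGACGTCA or TATAAA. A match describes the letters only, and no binding was measured.

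Probe set 226498_at read 8.20, 8.26 and 8.44 on the MMS1 control arrays and 6.62, 6.53 and 6.51 on the MMS1 miR-16 sponge arrays. On the RPMI8226 arrays it read 8.16, 8.21 and 8.15 with control sponge and 7.52, 7.64 and 7.49 with miR-16 sponge. Both sponge groups lay below both control groups with no overlap, and the control groups of the lines overlapped each other. The MMS1 difference was -1.74 ± 0.10 (SE, n = 3 per group, limma adjusted p = 1.31e-07), a 3.35-fold fall, and the RPMI8226 difference was -0.62 ± 0.10 (limma adjusted p = 0.0307), a 1.54-fold fall. The RPMI8226 call was lost in 10 of 17 alternative settings, among them the omission of any 1 RPMI8226 array or of MMS1 control replicate 1 or 2, with adjusted p of 0.0517 to 0.131. Across these settings the size on this probe set ran from -0.67 to -0.55.

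Probe set 226497_s_at, the brightest of FLT1, read 8.47, 8.55 and 8.63 in MMS1 control and 7.04, 6.92 and 7.05 in MMS1 sponge arrays. In RPMI8226 it read 8.42, 8.40 and 8.35 in control and 8.04, 8.18 and 8.04 in sponge arrays. The order of the groups was the same as for 226498_at, with no overlap in either line. The MMS1 difference was -1.54 ± 0.09 (SE, n = 3 per group, limma adjusted p = 2.90e-07), and the RPMI8226 difference was -0.30 ± 0.09 (limma adjusted p = 0.180).

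The dimmer 210287_s_at read 6.77, 6.77 and 6.62 in MMS1 control, 5.96, 5.61 and 5.64 in MMS1 sponge, 6.15, 6.29 and 6.06 in RPMI8226 control, and 5.96, 6.01 and 5.72 in RPMI8226 sponge arrays. The sponge groups lay below their controls in both lines, and the difference was -0.98 ± 0.12 in MMS1 (SE, limma adjusted p = 0.000215) and -0.27 ± 0.12 in RPMI8226 (limma adjusted p = 0.363). Probe set 222033_s_at read 6.03, 6.04 and 6.13 in MMS1 control, 5.55, 5.14 and 5.57 in MMS1 sponge, 5.96, 6.35 and 6.38 in RPMI8226 control, and 6.37, 6.26 and 6.23 in RPMI8226 sponge arrays. It separated the MMS1 groups alone, with a difference of -0.65 ± 0.14 in MMS1 (SE, limma adjusted p = 0.00902) and 0.06 in RPMI8226 (limma adjusted p = 0.900).

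The remaining FLT1 probe sets, 204406_at and 232809_s_at, were not called in any comparison. Their MMS1 differences were -0.30 (95% interval -0.60 to 0.004) and 0.26 (-0.13 to 0.64), so 1 of the 6 FLT1 estimates pointed upwards. As a mean over the 6 probe sets, the FLT1 difference was -0.83 in MMS1 (limma adjusted p = 1.32e-05) and -0.18 in RPMI8226 (limma adjusted p = 0.305), so in RPMI8226 the gene was not called on that summary. The annotation used here does not tie the probe sets to the full-length or the secreted form of the receptor.

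The fall of FLT1 was smaller in RPMI8226 than in MMS1 on 3 of its probe sets, in a direction called for 2.00% of all probe sets. The difference of effects was 1.24 ± 0.13 for 226497_s_at, 1.12 ± 0.14 for 226498_at and 0.71 ± 0.18 for 210287_s_at (SE, limma adjusted p = 0.000122, 0.000402 and 0.0355). The last of these was lost in 8 of 16 alternative settings, with adjusted p of 0.0689 to 0.0887. As a mean over the 6 probe sets it was 0.65 (limma adjusted p = 0.00305). For 222033_s_at the difference was 0.71 as well, but with limma adjusted p = 0.0586. The 4 FLT1 calls in MMS1 held in all 17 alternative settings, including the omission of MMS1 miR-16 sponge replicate 1, the array with low 18S signal.

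**Figure D2:**
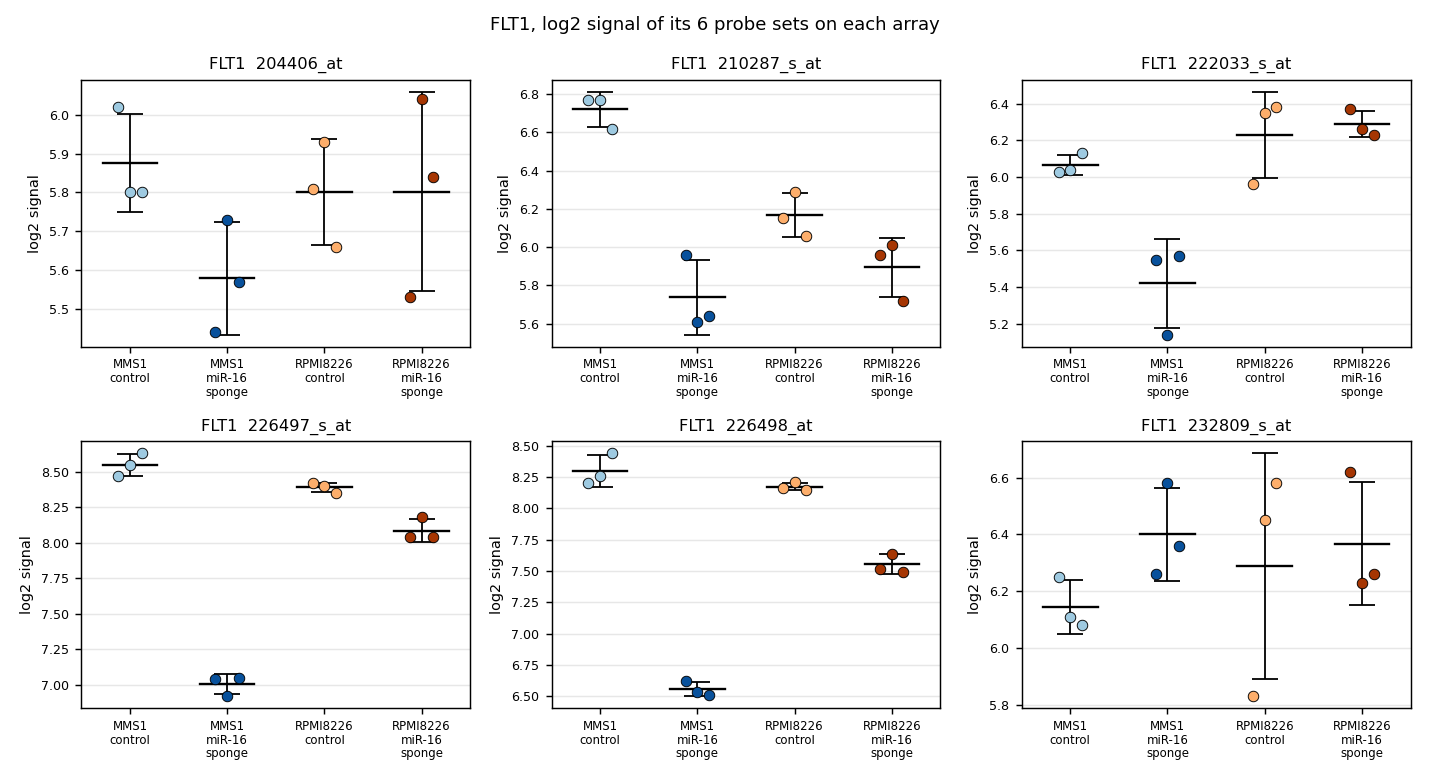
Log2 signal (vertical axis, a separate scale per panel) of the 6 FLT1 probe sets on each array, by group, with the mean as a wide bar and 1 SD as whiskers (n = 3). In 226497_s_at and 226498_at the MMS1 sponge points sit between 6.51 and 7.05, the RPMI8226 sponge points between 7.49 and 8.18, and both control groups at 8.15 or above. In 204406_at and 232809_s_at no difference was called.

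Over all members and both directions, 3 were called higher for the difference of effects between lines, all of FLT1. Another 4 were called lower, 3 of VEGFA and 1 of NRP2. Over all probe sets 2.00% were called higher and 3.10% lower. The median difference was 0.03 over the members and 0.02 over all probe sets.

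VEGFB, a ligand of FLT1, has 1 probe set. It read 8.96, 8.86 and 9.09 on the MMS1 control arrays, 8.68, 8.48 and 8.52 on the MMS1 sponge arrays, 8.69, 8.53 and 8.53 on the RPMI8226 control arrays and 8.57, 8.54 and 8.46 on the RPMI8226 sponge arrays. The MMS1 control group stood above the other groups without overlap. The MMS1 difference was -0.41 ± 0.10 (SE, n = 3 per group, limma adjusted p = 0.0227) and the RPMI8226 difference -0.06 (limma adjusted p = 0.842). The MMS1 call was lost without MMS1 control replicate 1 or 3, without MMS1 sponge replicate 2 or 3, and when the MMS1 groups were fitted alone, with adjusted p of 0.0642 to 0.102. It was the called member closest to the threshold in MMS1. The difference of effects, 0.35, was not called (limma adjusted p = 0.221).

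VEGFC, the ligand best known for lymphatic vessels, was dim and moved little. It read 5.76, 5.43 and 5.59 in MMS1 control, 5.70, 5.42 and 5.53 in MMS1 sponge, 5.68, 5.61 and 5.76 in RPMI8226 control, and 6.23, 5.54 and 5.50 in RPMI8226 sponge arrays. All groups overlapped. The differences were -0.05 (95% interval -0.42 to 0.33) in MMS1 and 0.07 (-0.30 to 0.44) in RPMI8226.

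PGF, placental growth factor, binds FLT1 and not KDR. Its brighter probe set 215179_x_at read 9.75, 10.06 and 9.85 in MMS1 control, 9.88, 10.18 and 9.86 in MMS1 sponge, 9.98, 10.12 and 10.16 in RPMI8226 control, and 10.26, 10.50 and 10.45 in RPMI8226 sponge arrays. The RPMI8226 sponge arrays lay above their controls, but the difference of 0.31 (95% interval 0.04 to 0.58) had a limma adjusted p of 0.292. The other PGF probe set, 209652_s_at, had a mean of 5.04 over the 12 arrays, against 10.09 for 215179_x_at, and was not called in any comparison either. An x_at probe set can bind more than 1 transcript, so the level of PGF cannot be read from 215179_x_at alone.

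KDR, VEGF receptor 2 and the main signalling receptor of VEGFA on endothelium, was close to the lower bound. It read 4.76, 4.24 and 4.77 in MMS1 control, 5.43, 5.56 and 5.03 in MMS1 sponge, 4.87, 4.31 and 5.10 in RPMI8226 control, and 4.83, 4.18 and 4.10 in RPMI8226 sponge arrays. The MMS1 sponge arrays all exceeded the MMS1 controls. The MMS1 difference of 0.75 ± 0.24 (SE, n = 3 per group) did not pass (limma adjusted p = 0.0682) and was the uncalled member closest to the threshold in MMS1. It passed in 4 of 16 alternative settings, with adjusted p of 0.0378 to 0.0471. The RPMI8226 difference was -0.39 (95% interval -0.91 to 0.13), and the difference of effects, -1.14, was not called (limma adjusted p = 0.0764).

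NRP1 was near the lower bound in every group. Its brightest probe set, 210615_at, read 4.82, 5.29 and 4.77 in MMS1 control, 4.85, 5.10 and 4.95 in MMS1 sponge, 4.94, 5.40 and 4.87 in RPMI8226 control, and 5.08, 5.13 and 4.50 in RPMI8226 sponge arrays. The groups overlapped, and the 12-array means of the 4 NRP1 probe sets ran from 4.53 to 4.97. None of the 4 was called in any comparison.

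NRP2 was represented by 11 probe sets with 12-array means from 4.16 to 6.52, and 1 of them rose. Probe set 214632_at read 5.41, 5.53 and 5.44 in MMS1 control, 6.90, 6.67 and 6.97 in MMS1 sponge, 5.82, 5.75 and 5.46 in RPMI8226 control, and 5.92, 5.91 and 5.63 in RPMI8226 sponge arrays. The MMS1 sponge arrays stood clear of all others. The MMS1 difference was 1.39 ± 0.13 (SE, n = 3 per group, limma adjusted p = 1.34e-05), a 2.62-fold rise, and the RPMI8226 difference was 0.14 (limma adjusted p = 0.677). The difference of effects was -1.25 ± 0.18 (SE, limma adjusted p = 0.00137), and all these calls held in every alternative setting run.

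None of the other NRP2 probe sets was called in any comparison. The brightest, 229225_at, read 6.02, 6.37 and 6.05 in MMS1 control, 6.35, 6.81 and 6.41 in MMS1 sponge, 6.89, 6.20 and 6.83 in RPMI8226 control, and 6.97, 6.87 and 6.49 in RPMI8226 sponge arrays. Its groups overlapped, and its MMS1 difference was 0.38 (95% interval -0.05 to 0.81, limma adjusted p = 0.289). Averaged over the 11 probe sets, the NRP2 difference in MMS1 was 0.06 (limma adjusted p = 0.662). The rise was seen on 214632_at alone.

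FGF2 was also dim. Probe set 204421_s_at read 5.78, 5.71 and 5.39 in MMS1 control, 5.0, 5.15 and 5.55 in MMS1 sponge, 5.40, 4.77 and 5.0 in RPMI8226 control, and 4.79, 5.07 and 5.31 in RPMI8226 sponge arrays. The groups of each line overlapped. The MMS1 difference was -0.40 (95% interval -0.81 to 0.02, limma adjusted p = 0.252). Probe set 204422_s_at had a 12-array mean of 4.33, and neither was called in any comparison.

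FGFR1, the receptor tyrosine kinase for FGF2, gave differences on 2 of its 7 probe sets. Probe set 211535_s_at read 5.11, 5.47 and 5.51 in MMS1 control, 6.36, 6.01 and 6.30 in MMS1 sponge, 6.17, 6.49 and 6.29 in RPMI8226 control, and 6.79, 6.82 and 6.62 in RPMI8226 sponge arrays. The sponge arrays lay above the controls in both lines. The difference was 0.86 ± 0.14 in MMS1 (SE, n = 3 per group, limma adjusted p = 0.00146) and 0.43 ± 0.14 in RPMI8226 (limma adjusted p = 0.202).

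Probe set 210973_s_at read 5.55, 5.62 and 5.87 in MMS1 control, 6.35, 6.24 and 6.12 in MMS1 sponge, 6.35, 6.59 and 6.31 in RPMI8226 control, and 6.53, 6.49 and 6.46 in RPMI8226 sponge arrays. It separated the MMS1 groups and not the RPMI8226 groups, with a difference of 0.56 ± 0.12 in MMS1 (SE, limma adjusted p = 0.00816) and 0.08 in RPMI8226 (limma adjusted p = 0.820). The differences of effects for 211535_s_at and 210973_s_at, -0.43 and -0.48, were not called (limma adjusted p = 0.271 and 0.131).

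The brightest FGFR1 probe set, 215404_x_at, read 8.76, 8.92 and 8.91 in MMS1 control, 9.43, 9.24 and 8.93 in MMS1 sponge, 9.07, 9.18 and 9.25 in RPMI8226 control, and 9.25, 9.67 and 9.43 in RPMI8226 sponge arrays. Its name ends in x_at, so it can bind more than 1 transcript. The MMS1 groups were separated by a narrow gap, and the difference of 0.34 (95% interval 0.03 to 0.64) was not called (limma adjusted p = 0.168). The mean over all 7 probe sets gave an MMS1 difference of 0.33 (limma adjusted p = 0.0210), so the call for the gene depends on how its probe sets are summarised.

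**Figure D3:**
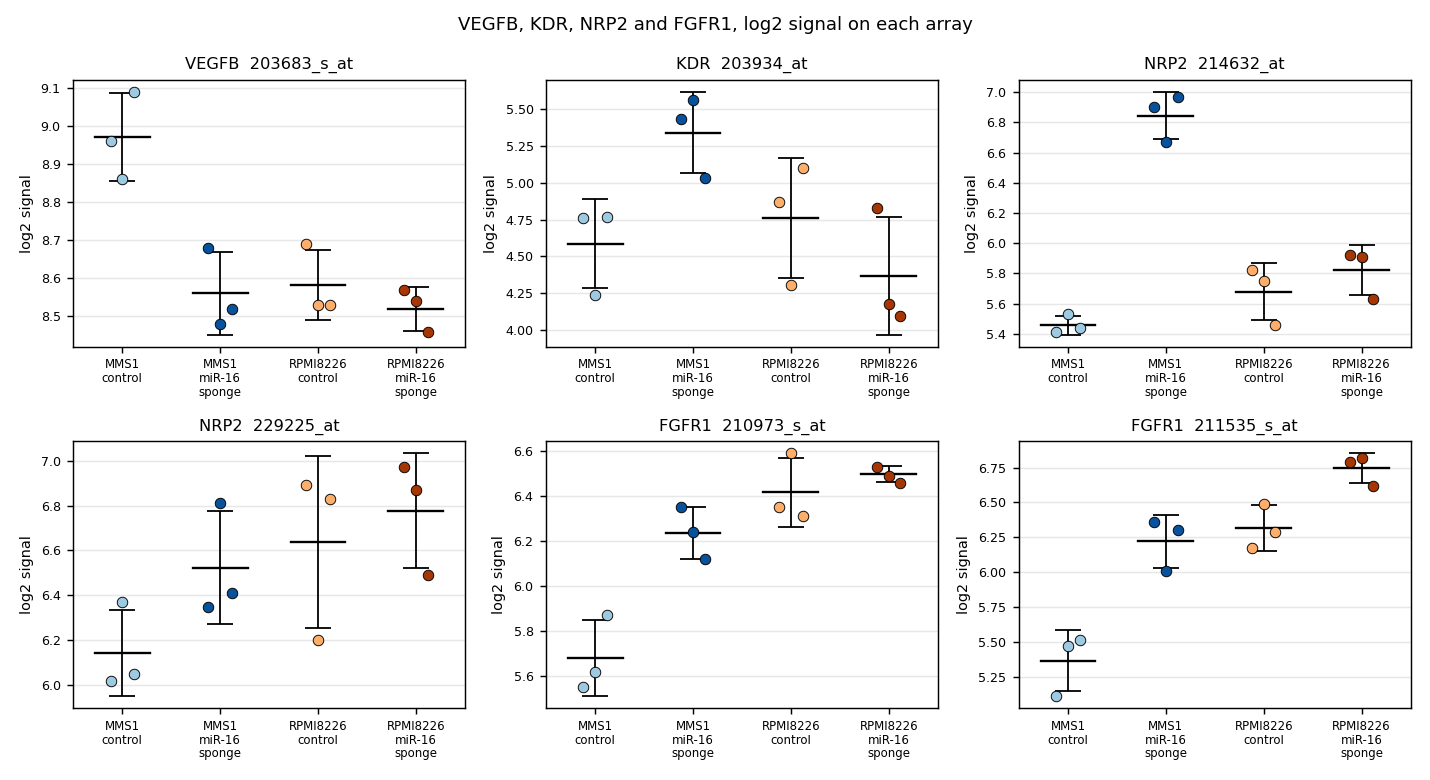
Log2 signal (vertical axis, a separate scale per panel) of the VEGFB and KDR probe sets and of 2 probe sets each of NRP2 and FGFR1 on every array, by group, with the mean as a wide bar and 1 SD as whiskers (n = 3). VEGFB is highest in MMS1 control arrays. NRP2 214632_at is high in MMS1 sponge arrays alone, from 6.67 to 6.97, and both FGFR1 probe sets are lowest in MMS1 control arrays.

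In the control sponge arrays the lines already differed in VEGFA, FGFR1, VEGFB and 1 FLT1 probe set. Of the 39 members 6 were called higher in RPMI8226, against 5.45% of all probe sets, and 2 lower, against 2.73%. This comparison uses the same control arrays as the sponge effects, so its values stand beside them and are not independent of them. RPMI8226 exceeded MMS1 by 0.81, 0.54, 0.62 and 0.83 for VEGFA 210512_s_at, 210513_s_at, 211527_x_at and 212171_x_at (limma adjusted p = 0.000632, 0.0169, 0.0138 and 0.000145). Among FGFR1 probe sets the excess was 0.95 for 211535_s_at and 0.74 for 210973_s_at (limma adjusted p = 0.000776 and 0.00146). VEGFB was lower in RPMI8226 by a difference of -0.39, and FLT1 210287_s_at by -0.56 (limma adjusted p = 0.0355 and 0.0142). The FGFR1 probe set 226705_at, at 0.42, lay just outside the threshold (limma adjusted p = 0.0501).

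Over all probe sets 66.6% of the calls in this comparison were higher in RPMI8226, and 55.5% after quantile normalization. For the mean of both sponge effects the share of higher calls was 29.4%, and 41.3% after quantile normalization. The count of 8 members fell to 4 without MMS1 control replicate 1, and to 5 without MMS1 control replicate 2 or RPMI8226 control replicate 3. The VEGFB call was lost in 7 of 17 alternative settings, the FLT1 210287_s_at and VEGFA 211527_x_at calls in 3 and the VEGFA 210513_s_at call in 5.

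**Figure D4:**
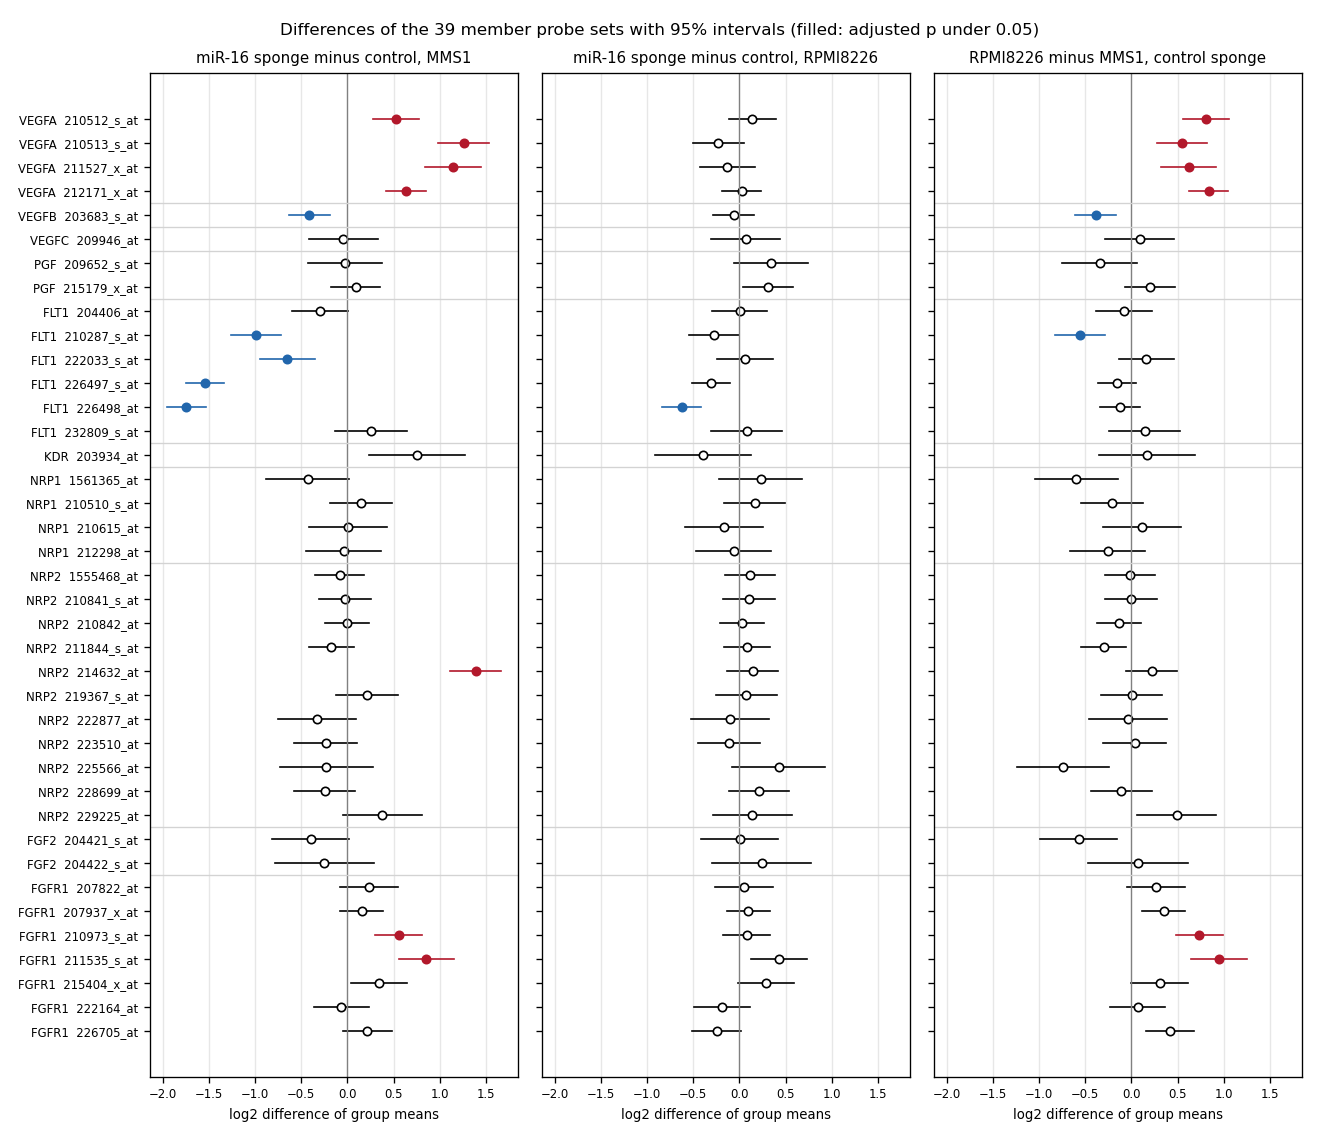
Log2 difference of group means (horizontal axis, the same scale in the 3 panels) for the 39 member probe sets, with 95% intervals and filled points for an adjusted p under 0.05 (red higher, blue lower). The filled points are 12 in the MMS1 sponge panel, 1 in the RPMI8226 sponge panel and 8 in the panel of RPMI8226 against MMS1 control arrays.

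Around the members, the other genes of the pathway were read from lists by their brightest probe set. Over all genes 4.34% were called higher in MMS1 and 8.08% lower. Of 21 other FGF ligands 1 rose and 1 fell: FGF16 rose by 0.53 (limma adjusted p = 0.0103) and FGF11 fell by 0.64 (limma adjusted p = 0.00238). FGF16 is a secreted ligand and FGF11 an intracellular member of the family, and the FGF16 call was lost without MMS1 control replicate 1. As RPMI8226 against MMS1 in control arrays, FGF16 read 0.49 and FGF11 -0.40 (limma adjusted p = 0.0186 and 0.0442). Of 9 other FGF receptors, co-receptors and carriers none was called in MMS1. In the control arrays FGFR3, a receptor activated by translocation in a subset of myelomas, was higher in RPMI8226 by 0.83 and FGFR2 by 0.58 (limma adjusted p = 0.000253 and 0.0132). Over all genes 6.52% were called higher in that comparison and 3.80% lower. The FGFR2 difference was 0.00 as a mean over its probe sets.

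FLT4, the receptor of VEGFC, was not called in any comparison, and none of the 12 semaphorin and plexin partners of the neuropilins was. Of 11 receptor adaptors 2 fell in MMS1, against 8.08% of all genes. These were SOS1, by 0.52, and SHC1, by 0.61 (limma adjusted p = 0.00334 and 0.00301). Both proteins link activated receptors to RAS. GRB2, the adaptor that joins SOS1 to receptors, read -0.21 (limma adjusted p = 0.307). As RPMI8226 against MMS1 in control arrays, SOS1, SHC1 and GRB2 read 0.61, 0.39 and -0.42 (limma adjusted p = 0.00130, 0.0465 and 0.0349).

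Of 8 oxygen sensing regulators of VEGFA 1 rose and 1 fell in MMS1, against 4.34% and 8.08% of all genes. HIF1A, the oxygen-regulated subunit of the transcription factor that induces VEGFA, read 0.43, and EGLN3, a prolyl hydroxylase that marks HIF1A for degradation, read -0.45 (limma adjusted p = 0.0235 and 0.0181). Each call was lost in 4 of 17 alternative settings. For ARNT, the partner of HIF1A, and VHL, which targets HIF1A for degradation, the difference of effects between lines was -0.64 and 0.65 (limma adjusted p = 0.0232 and 0.0423), and the calls were lost in 7 and 11 of 16 settings. Over all genes 2.63% were called higher for this difference and 3.27% lower. As a mean over its probe sets, the ARNT difference was -0.05 (limma adjusted p = 0.872). On the same summary the VHL difference was 0.72 and the HIF1A difference -0.52 (limma adjusted p = 0.00998 and 0.0365). VHL was then also called lower in MMS1, at -0.38 (limma adjusted p = 0.0260), so the counts of this list depend on the summary.

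Heparan sulfate chains hold FGF2 and longer VEGFA forms at the cell surface. Of 16 carriers and enzymes 2 fell in MMS1, against 8.08% of all genes. These were the carrier SDC2, by 0.35, and the enzyme HS6ST1, by 0.48 (limma adjusted p = 0.0225 and 0.0483). The SDC2 call was lost in 5 of 17 settings and the HS6ST1 call in 12. NDST1, an enzyme of chain synthesis, was called in the control arrays alone, at 0.35 (limma adjusted p = 0.0407), and read -0.07 as a mean over its probe sets. SDC2 read -0.68 in the control arrays, as RPMI8226 against MMS1 (limma adjusted p = 0.000322).

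Of 16 genes of other growth factor systems of vessels 2 rose and 1 fell in MMS1, against 4.34% and 8.08% of all genes. EFNB2, a membrane ligand of the arterial endothelium, rose by 0.99, HGF, the ligand of MET, rose by 0.41, and EGFL7, a secreted endothelial factor, fell by 0.45 (limma adjusted p = 0.000173, 0.0405 and 0.0168). EPHB4, the receptor of EFNB2, read 0.26 (limma adjusted p = 0.120), and 0.28 as a mean over its probe sets (limma adjusted p = 0.0324). The EFNB2 effect differed between lines by -1.24 (limma adjusted p = 0.00102). In the control arrays 3 of the 16 genes were called higher in RPMI8226 and 1 lower, against 6.52% and 3.80% of all genes. The 3 were EFNB2, EGFL7 and EPHB4, at 0.99, 1.24 and 0.42 (limma adjusted p = 0.000201, 8.94e-06 and 0.0156). The EFNB2 mean was 6.65 in RPMI8226 control arrays and 6.65 in MMS1 sponge arrays. The HGF call was lost in 11 of 17 settings, and the EGFL7 call without MMS1 control replicate 1 or 3. In RPMI8226 no gene of the 8 pathway lists was called, where 0.0152% of all genes were called higher and 0.202% lower. SHC1, SDC2 and EGFL7 read -0.58, -0.33 and -0.44 there (limma adjusted p = 0.0586, 0.139 and 0.111). For the mean of both sponge effects they were called, at -0.59, -0.34 and -0.45 (limma adjusted p = 0.000572, 0.00556 and 0.00343), against 6.60% of all genes called lower. Their differences of effects between lines were not called.

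Over all 12 arrays, the genes whose signal ran most like VEGFA 210512_s_at were PRKAB2, ARRDC4 and SLC2A3, with Pearson r of 0.983, 0.980 and 0.977 among 13062 genes searched. For NRP1 210615_at they were AGAP6, SLC9A5 and ABHD18 (r = 0.916, 0.889 and 0.845), and for FGFR1 215404_x_at TASL, DLGAP4 and GCNT7 (r = 0.956, 0.949 and 0.947). These are descriptions over 12 arrays that fall into 4 groups, so a shared difference between groups is enough to give such an r. The NRP1 values come from a probe set near the lower bound, and the TASL and DLGAP4 probe sets, as that of FGFR1, end in x_at.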

How the data were processed

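Expression of the 12 samples was read from the table the authors deposited, which holds log2 signals per probe set and array with a lower bound near 4 (16 on the linear scale). Before hybridisation 15 µg RNA was amplified linearly in 2 rounds and biotinylated, per the labels' protocols. The method of summarising and scaling the signals was not given in the sources used here. Of 54675 probe sets 62 controls were left out of the tests. The platform annotation named 1 gene for 41097 of those tested, several for 1801 and none for 11777. Symbols were updated through the reference gene table where it held them, and 54 were kept as in the platform table. Unmapped columns numbered 0.

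A model with 1 mean per group was fitted over all 12 arrays with limma 3.58.1 in R 4.3.3, with Benjamini-Hochberg adjustment over 54613 probe sets and intervals at 95%. The 5 comparisons were the sponge effect in each line, their mean, their difference (RPMI8226 minus MMS1) and RPMI8226 against MMS1 in control arrays. The fit was tested on simulated data. A gene's representative is its probe set with the highest mean. The text gives each array's value for member probe sets called in any comparison and for each representative. From each pathway list it names up to 4 genes, those with the smallest p in MMS1 among genes called in any comparison, and for VEGFA, NRP1 and FGFR1 the 3 genes with the highest correlation. The members and the lists were chosen with earlier results of these data known. Alternatives were quantile normalization, a replicate block, the brighter part of the probe sets, a trended prior variance, the compared groups alone, the mean over a gene's probe sets, and each array left out. Tables and figures were made with Python 3.11.15, pandas 2.3.3 and matplotlib 3.10.9.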

Additional observations from a re-analysis of the deposited data

Results flagged for a closer look

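The sponge effect differed between the lines for 7 of 39 member probe sets, against 5.10% of all probe sets, each by the limma test of the difference (RPMI8226 minus MMS1). For VEGFA the difference was -1.48 on 210513_s_at, -1.27 on 211527_x_at and -0.61 on 212171_x_at, and the rise was in MMS1. For FLT1 it was 1.24 on 226497_s_at, 1.12 on 226498_at and 0.71 on 210287_s_at, where MMS1 had the larger fall. For NRP2 it was -1.25 on 214632_at, which rose in MMS1. In all 7 the MMS1 sponge effect was the larger in size. The calls of VEGFA 212171_x_at and FLT1 210287_s_at were each lost in 8 of 16 alternative settings, and the other calls held in all 16.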

How the results depend on the processing

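No member result changed direction past the threshold under any setting run. Members called numbered 11 to 13 in MMS1 (12 as reported), 8 to 13 for the mean effect (10) and 5 to 9 for the difference between lines (7). Calls over all probe sets ran from 3730 to 7154 in MMS1 (5635 as reported). They ran from 2574 to 5787 for the mean effect (3929) and from 1845 to 4577 for the difference (2786). In RPMI8226 the count of members was 1 as reported, 0 with the replicate block, 0 with the compared groups alone, and 0 to 1 with 1 array left out. For RPMI8226 against MMS1 control arrays it was 8, and 4 to 10 with 1 array left out. Over all probe sets that comparison gave 4465 calls, and 2747 to 5379 with 1 array left out. As a mean over probe sets, FGFR2 read -0.000298 and NDST1 -0.0674 in that comparison, against 0.58 and 0.35 on the representative, and HS6ST1 and HGF were no longer called in MMS1 (limma adjusted p = 0.406 and 0.594). On the same summary FLT1 was not called in RPMI8226, and ARNT was not called for the difference between lines. The cause was not tested.

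Samples share a replicate number across groups, but the labels do not say what it marks. Over 18 same-number pairs, the correlation of deviations from group means ran from -0.07 to 0.06, with 0 pairs over 0.1, and 3 of 12 arrays correlated best with their own number. With the replicate block, 4 member results lost their call and 191 kept their side of the threshold, and the count over all probe sets was 4908 against 5635 in MMS1 and 32 against 107 in RPMI8226.

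In RPMI8226 the count over all probe sets was 8 with the compared groups alone, 1697 with a trended prior variance, 1268 among the brighter probe sets and 723 without MMS1 sponge replicate 1. Dim genes near the lower bound, KDR, NRP1 and FGF2, limit what 3 arrays a group can show.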
